A study of Mus musculus with 4 samples.

Results

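Solute carriers are the membrane proteins that move sugars, amino acids, bile acids, ions, metals, vitamins and nucleotides across the cell surface and across the membranes of organelles. In the small intestine they take up nutrients at the brush border and pass them to the blood, and in secretory cells they feed the Golgi and the endoplasmic reticulum with the sugars, ATP and zinc needed to make mucus and granule proteins. In the ileum one chain of carriers recovers bile acids: Slc10a2 brings them into the enterocyte and the pair Slc51a and Slc51b lets them out at its base.

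The members are the genes whose symbol starts with Slc and a digit, without Slc12a2, and which had at least 100 UMIs (unique molecular identifiers, 1 per captured RNA molecule) summed over both deposited matrices. They were chosen by that measured total: 216 of 375 such symbols passed, of 32285 genes in the matrices. Just outside were Slc35e3 with 92 UMIs and Slc22a4 with 98, and just inside Slc26a10 with 102 and Slc17a1 with 103. Together the members held 369118 UMIs, 0.633% of all. The symbols name families and not always carriers: 4 members, Slc9a3r1, Slc9a3r2, Slc4a1ap and Slc7a6os, are named for a carrier but are not carriers themselves. All 216 have a position in GENCODE M21 (build GRCm38).

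The cells came from the crypts of the mouse distal small intestine, with the villi scraped off, in 8 mice that carry Lgr5-EGFP-IRES-CreERT2 and Rosa26-mTmG. After 4-hydroxytamoxifen the Cre recombinase of Lgr5-expressing stem cells switches the Rosa26 reporter from membrane Tomato to membrane GFP, so that stem cells and their daughters turn green. Mice 1 to 4 were traced for 48 h and mice 5 to 8 for 72 h, and from each mouse GFPhigh cells (called clone here) and GFPnegative cells (called control) were sorted, all after the same tamoxifen. The EGFP of the Lgr5 allele itself is also green, so the GFPhigh gate need not hold clone cells alone, and the GFPnegative cells come from the same crypts. Each mouse had its own antibody hashtag, and the cells were sequenced in 2 pools: pool 1 held the control cells of mice 1, 2, 5 and 6 and the clone cells of mice 3, 4, 7 and 8, and pool 2 the reverse.

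Of 5452 barcodes, 4029 carried 1 hashtag, and 1993 of these were kept, with a minimum of 1000 UMIs and 500 genes and with mitochondrial UMIs below 20%; 1 barcode sequence occurred in both pools. The clone cells at 48 h were few: 4, 15, 83 and 8 cells in mice 1 to 4, with 77566 to 298850 UMIs in each mouse, against 813389 UMIs or more in every other sum of a mouse and gate. The clone cells of mouse 3 stood apart, with a median of 1841 UMIs per cell and a median of 48.57% of hashtag UMIs from their own tag, against 74.1% or more in every other sum. They were 83 of the 110 clone cells at 48 h, so counts that lead a comparison are also given without that mouse. Lgr5 itself lay between 76.7 and 164 CPM (counts per 1000000 UMIs) in the 72 h clone cells and between 30.2 and 68.7 in the 72 h control cells.

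Clustering without any Slc gene gave 7 classes named by their markers: stem-like (384 cells), dividing-like (530), goblet-like (500), Paneth-like (65), enteroendocrine-like (34), tuft-like (48) and enterocyte-like (169). They are called by the cell type alone from here on. Clusters of 105 and 118 cells, led by Dmbt1 and Reg3b and by Olfm4 and Ifitm3, and 40 shallow cells stayed unnamed. A level in a class is the mean over mice with at least 5 such cells, in CPM, clone and control cells together, with the SD over mice. It is not scaled by gene length, so levels are compared between classes and not between genes. A member is said to be held by a class when its level there was at least 2 times that of every other class, with at least 50 UMIs. Because the classes were made from these same cells, levels between classes are a description without a test.

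The promoters of 4 members that the results turn on show what sequence lies before carriers of enterocytes (Slc51a, Slc3a1, Slc10a2) and of goblet and Paneth cells (Slc12a8, 1 of its several starts). Each is up to 250 bases before the transcript start from RefSeq (GRCm38.p6), 5′ to 3′ on the gene's strand, with bases in an annotated exon left out (64 for Slc10a2). Capitals mark matches, on either strand, to 4 short motifs chosen after the data had been seen: CAAAGTC for the HNF4 core, AGATAA for factors of the GATA family, TTTATTG for those of the CDX family and TGACGTG for XBP1 and ATF6.
Slc51a promoter (chr16:32487880-32488129, minus strand): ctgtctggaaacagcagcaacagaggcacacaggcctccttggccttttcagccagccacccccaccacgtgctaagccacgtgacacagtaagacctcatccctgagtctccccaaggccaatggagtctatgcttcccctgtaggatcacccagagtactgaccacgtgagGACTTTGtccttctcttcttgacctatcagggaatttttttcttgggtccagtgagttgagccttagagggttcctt
Slc3a1 promoter (chr17:85028097-85028346, plus strand): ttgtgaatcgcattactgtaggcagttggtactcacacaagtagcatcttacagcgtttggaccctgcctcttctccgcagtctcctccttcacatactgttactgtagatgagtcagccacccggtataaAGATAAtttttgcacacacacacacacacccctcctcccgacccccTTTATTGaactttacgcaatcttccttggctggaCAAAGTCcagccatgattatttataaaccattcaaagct
Slc10a2 promoter (chr8:5105352-5105537, minus strand): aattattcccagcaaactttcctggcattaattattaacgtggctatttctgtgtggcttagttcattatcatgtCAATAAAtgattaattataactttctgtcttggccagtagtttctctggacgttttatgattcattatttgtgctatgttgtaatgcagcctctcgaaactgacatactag
Slc12a8 promoter (chr16:33517078-33517327, plus strand): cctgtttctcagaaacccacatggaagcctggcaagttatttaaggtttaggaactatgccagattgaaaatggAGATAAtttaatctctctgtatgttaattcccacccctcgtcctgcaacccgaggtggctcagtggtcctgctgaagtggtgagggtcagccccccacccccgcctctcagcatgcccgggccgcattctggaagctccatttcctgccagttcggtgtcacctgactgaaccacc
Slc3a1 has the HNF4 core, CDX and GATA letters, with first bases 39, 73 and 119 before the start. Slc51a has the HNF4 core and Slc10a2 the CDX letters, both on the other strand, and Slc12a8 has the GATA letters. The other Slc12a8 promoter in the table (chr16:33517945-33518194) has none of the 4. Of the 27 carriers of enterocytes described next, 21 have a promoter in the table, with 27 promoters: the HNF4 core is in 3 of these (11.1%), GATA in 4 (14.8%), CDX in 2 (7.41%) and the XBP1 and ATF6 letters in 1 (3.7%). Of the 11 carriers of goblet and Paneth cells, 10 have 14 promoters: the HNF4 core is in 1 (7.14%), GATA in 3 (21.4%), and the other motifs in 0. Over all 32851 promoters in the table, with the whole 250 bases searched in each case, the shares are 3.84%, 9.99%, 4.2% and 1.65%. A match is a description of these letters and not a binding site.

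Enterocytes held more carriers than any other class. They held 27 of the 216 members, or 12.5%, against 349 of the 11617 genes with at least 100 UMIs, or 3.00%. The members' share of all UMIs was 0.985% ± 0.079 (SD, n = 8 mice) in enterocytes, with no mouse under 0.898%, and between 0.553% in dividing cells and 0.672% in enteroendocrine cells elsewhere. For 15 of the 27 (55.6%), the lowest enterocyte value of any mouse lay above the highest value in the next class, near the share among all genes held by enterocytes, 193 of 349 (55.3%).

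The bile acid chain led. Slc10a2 (chr8:5083219-5105351), which takes up bile acids with sodium at the brush border, ran from 55.6 through a median of 163 to 299 CPM in enterocytes of the 8 mice. In dividing cells, the next class, no mouse passed 7.07 CPM, and the ratio of the means was 51.2. Slc51a (chr16:32474504-32487879) ran from 452 through 569 to 809 CPM and Slc51b (chr9:65412714-65422955) from 411 through 522 to 720 CPM, so these 2 subunits of the basolateral bile acid exporter were high in every mouse. The highest mouse in another class reached 77.1 CPM for Slc51a, in tuft cells. Fabp6, the bile acid binding protein of the ileal cytosol and no carrier, followed the same classes, with 22550 CPM in enterocytes and 58.4 to 440 CPM elsewhere.

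With roles assigned by gene family, amino acid and peptide carriers were the most numerous among the 27, with 8 of 36 such members. Of the 14 members for bile acids, fatty acids and choline, 5 were held by enterocytes. Slc7a9 and Slc3a1, the light and heavy chains of the brush border carrier for cystine and dibasic amino acids, had 148 ± 48 and 33.97 ± 20 CPM (SD, n = 8), with ratios of 15.6 and 10.1 to the next class. Slc6a20a, which carries proline, had 67.1 ± 33 CPM and a ratio of 10.2. Slc1a1, the epithelial glutamate carrier, had 156 ± 31 CPM in enterocytes and was also present in dividing cells, at 42.5 ± 10. The basolateral partners were less sharply divided: Slc7a7 had 72.2 ± 12 CPM, 2.29 times its level in goblet cells, and Slc7a8 26.04 ± 13 CPM, 2.21 times its level in dividing cells. Slc6a8, the creatine carrier, and Slc6a4, the serotonin carrier, completed the group, to which they belong by family and not by what they carry.

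Carriers of anions came next. Slc13a1, which takes up sulfate, had 208 ± 89 CPM in enterocytes and 25.5 ± 26 in enteroendocrine cells. Slc13a2, for citrate and succinate, had 49.9 ± 16 CPM, and the phosphate carrier Slc34a2 42.6 ± 21, with ratios of 22.6 and 29.4. The chloride and bicarbonate exchangers Slc26a6 and Slc26a3 had 69.7 ± 26 and 85.9 ± 20 CPM. The sodium and proton exchanger Slc9a3 had 14.2 ± 8.6 CPM from 71 UMIs. Its scaffold gene Slc9a3r1, a member by its symbol only, was not held by a class. Slc5a8, which carries short monocarboxylates with sodium, had 94.1 ± 32 CPM against 15.9 ± 11 in stem cells.

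Metal carriers in enterocytes were Slc40a1, the iron exporter ferroportin, at 88.5 ± 36 CPM, the zinc importers Slc39a5 and Slc39a4 at 132 ± 20 and 53.0 ± 16 CPM, and the zinc exporter Slc30a1 at 36.4 ± 22 CPM. Slc25a37, the mitochondrial iron importer, had 114 ± 37 CPM and Slc25a24, the mitochondrial carrier of ATP-Mg and phosphate, 279 ± 45. The remaining members held were Slc52a2 (riboflavin), Slc44a4 (thiamine pyrophosphate and choline) and Slc27a4 (fatty acids), at 26.8, 130 and 44.2 CPM. The unnamed cluster led by Dmbt1 and Reg3b stood between: over the 27 members its median level was 25.0 CPM, against 72.2 in enterocytes and 10.9 in dividing cells.

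Several well-known absorptive carriers were not held by enterocytes here. Slc5a1, the sodium and glucose cotransporter, had 190 ± 30 CPM in enterocytes, but also 126 ± 85 in enteroendocrine and 92.2 ± 25 in stem cells. Slc15a1, the peptide carrier, had 5.66 ± 4.7 CPM in enterocytes and values of 72.7, 31.4, 50.1 and 155 CPM in the enteroendocrine cells of 4 mice, from 42 UMIs. Slc2a2, the basolateral glucose carrier, had 29 UMIs in all and is no member. The villi, where most enterocytes sit, had been scraped off, and whether this bears on these levels was not tested.

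**Figure D1:**
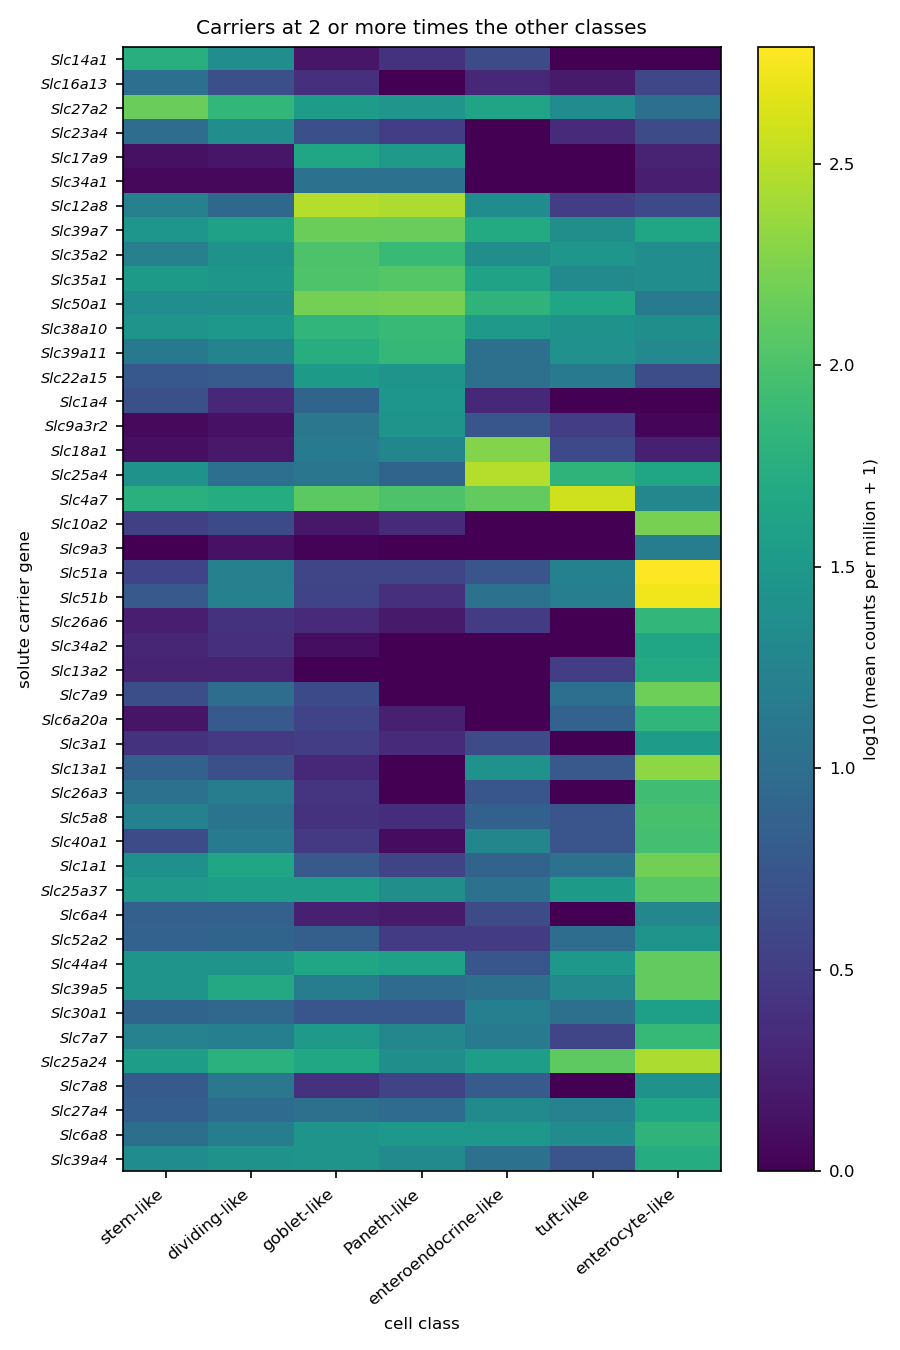
Mean level of the 46 members at 2 or more times the other classes in 1 class, or in goblet and Paneth cells both, as log10 of CPM + 1 (colour), with genes as rows and the 7 classes as columns. The enterocyte column is brightest over the lower 27 rows, and the goblet and Paneth columns are bright together over a block of rows in the upper part, from Slc17a9 to Slc22a15.

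Goblet cells held no carrier alone (0%, against 0.293% of genes). Taken as a pair, goblet and Paneth cells both lay at least 2 times above every other class for 11 members, or 5.09%, against 1.72% of the 11617 genes. The clearest was Slc17a9, the carrier that loads nucleotides into vesicles: it had 43.3 ± 9.9 CPM in goblet (n = 8) and 30.7 ± 12 in Paneth cells (n = 6), and a mean of 0.886 or less in every other class. Slc12a8, of the cation and chloride cotransporter family, ran from 261 through 300 to 335 CPM in goblet cells and from 99.4 through 290 to 378 in Paneth cells, against 21.9 ± 21 CPM in enteroendocrine cells, the next class. The highest mouse in stem, dividing or enterocyte cells had 23.1 CPM of it.

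Several of the set serve the secretory pathway. Slc39a7 (chr17:34028269-34031682), which releases zinc from the endoplasmic reticulum, had 144 ± 20 CPM in goblet and 139 ± 41 in Paneth cells, and 22.6 to 49.5 CPM in the other classes. Slc35a2 and Slc35a1 bring UDP-galactose and CMP-sialic acid into the Golgi, where mucins are glycosylated: they had 101 ± 16 and 104 ± 18 CPM in goblet cells and 76.0 ± 25 and 114 ± 35 in Paneth cells. The sugar carrier Slc50a1 had 160 ± 29 and 164 ± 51 CPM. Slc34a1, Slc38a10, Slc39a11, Slc22a15 and the scaffold Slc9a3r2 were the other members of the set. Of 25 members with a role in nucleotide sugars and the secretory pathway, 9 were highest in goblet cells, beside 30 of all 216 members. Another 4 each were highest in enteroendocrine, tuft and enterocyte cells, and 0 of the 25 were held by a single class. Paneth cells alone held 2 members (0.926%, against 0.482% of genes): Slc1a4, a carrier of small neutral amino acids, with 28.0 ± 14 CPM against 6.90 ± 2.9 in goblet cells, and Slc9a3r2.

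Among the markers, some were shared by these 2 classes and others set them apart. Muc2, the main goblet mucin, stood at 7715 CPM in goblet and 6851 CPM in Paneth cells, and at 25.7 to 51.9 CPM in the other 5 classes. Zg16, a lectin of goblet granules, had 14420 CPM in goblet and 388.5 in Paneth cells, and Lyz1, the Paneth lysozyme, 105.3 and 11610. Cells of 2 types joined under 1 hashtag were not called, and their part in the shared levels was not tested.

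Enteroendocrine cells held 2 members, or 0.926%, against 1.81% of genes. Both were without overlap with the next class, as were 154 of the 210 genes held by enteroendocrine cells (73.3%). Slc18a1, which loads monoamines such as serotonin into vesicles, had 109, 211, 184 and 249 CPM in the 4 mice with enough cells, against 7.41 to 32.7 CPM in the Paneth cells of 6 mice. Slc25a4, the muscle-type mitochondrial ATP and ADP exchanger, had 245, 251, 284 and 421 CPM, against at most 108 CPM in the tuft cells of any mouse. Tuft cells held 1 member (0.463%, against 1.82% of genes), Slc4a7, the sodium and bicarbonate cotransporter, with 397, 275, 495, 340 and 427 CPM in 5 mice. Its next class, enteroendocrine cells, had 132 ± 69 CPM, and enterocytes had the lowest level, 18.4 ± 5.8.

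Stem cells held 3 members, or 1.39%, against 0.775% of genes: Slc14a1, the urea carrier, Slc27a2, an acyl-CoA synthetase of the fatty acid transport family, and Slc16a13, of the monocarboxylate family. Slc27a2 (chr2:126552407-126588243) ran from 87.4 through 145 to 179 CPM in stem cells, from 43.6 to 95.6 in dividing cells and from 0 to 20.2 in enterocytes. Slc14a1 had 55.7 ± 30 CPM in stem and 22.3 ± 16 in dividing cells, and its mice spread widely, from 9.73 to 86.6 CPM in stem cells. In dividing cells the only member held (0.463%, against 2.45% of genes) was Slc23a4, of the nucleobase and ascorbate carrier family, with 17.3 to 30.98 CPM against 4.33 to 15.3 in stem cells. Which members stem cells held depended on the cell filter and clustering: Slc14a1 was held in 5 of 7 settings, Slc27a2, at 2.02 times dividing cells, in 4 and Slc16a13 in 1.

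**Figure D2:**
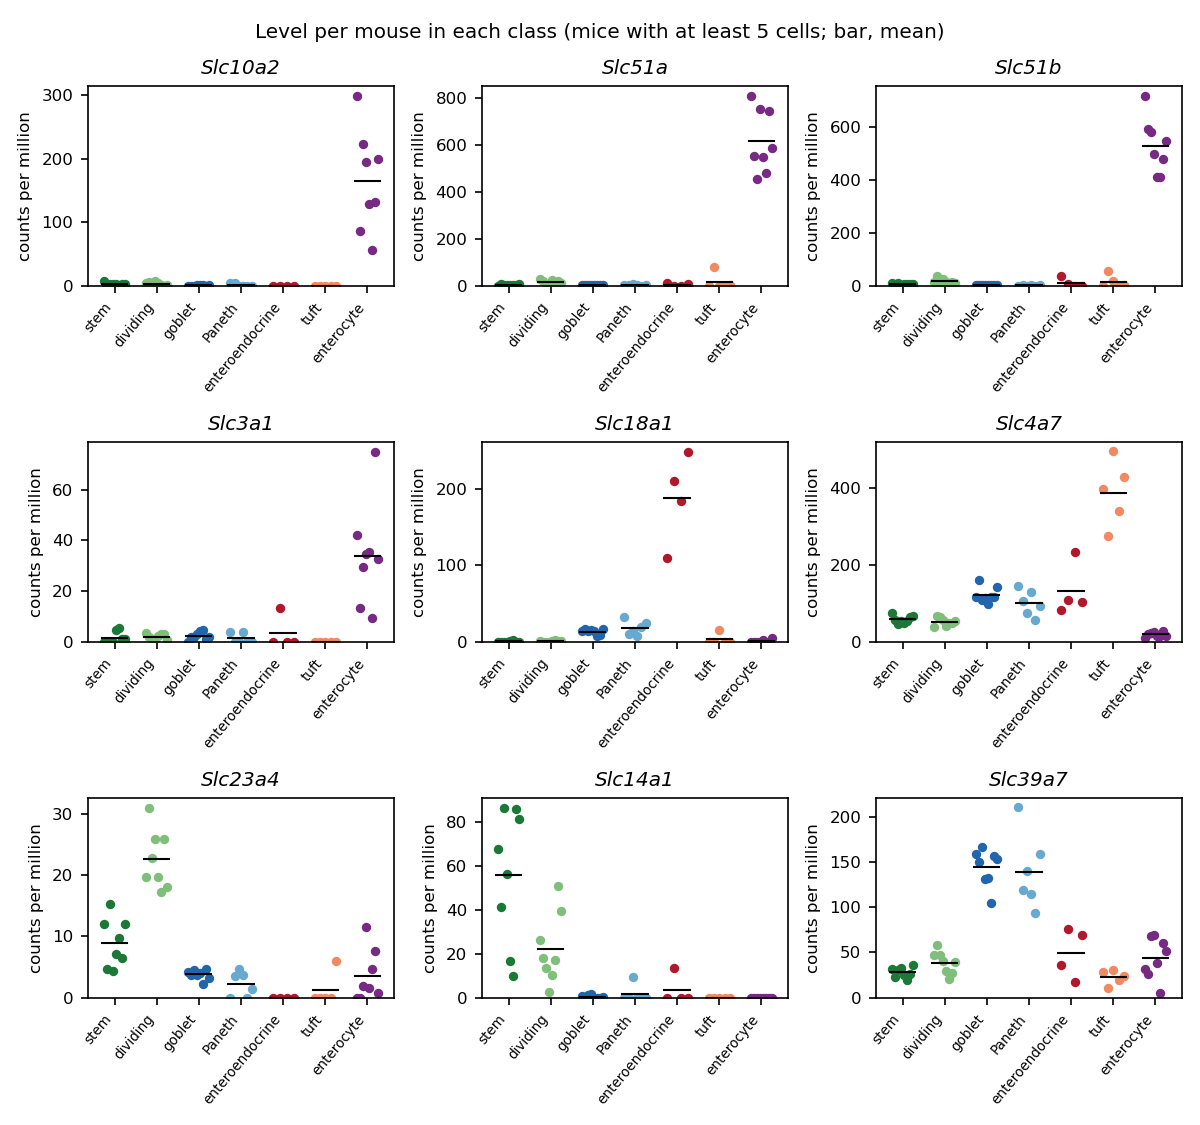
Level in CPM (linear axes from 0) of 9 members in the 7 classes, with 1 point per mouse with at least 5 cells of the class and a bar at the mean. Slc10a2, Slc51a, Slc51b and Slc3a1 are high in enterocytes, Slc18a1 in enteroendocrine and Slc4a7 in tuft cells, and Slc39a7 in goblet and Paneth cells alike.

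The other 170 members were held by no class or pair. The 5 with the most UMIs were among them: Slc25a5 (40897 UMIs) and Slc25a3 (34940), which exchange ATP for ADP and import phosphate in mitochondria, Slc38a2 (16229), a carrier of small neutral amino acids, Slc26a2 (6753), the widely expressed sulfate carrier, and Slc44a1 (6547), for choline. Slc25a5 had 1309 ± 117 CPM in enterocytes, 1.74 times its level in dividing cells, and Slc38a2 lay between 199.5 and 286.7 CPM in all 7 classes. Mitochondrial Slc25 members took 26.9% of the members' UMIs in Paneth cells and 39.96% in dividing cells, the ends of the range.

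The next question was whether carriers differ between GFPhigh and GFPnegative cells, and between 48 h and 72 h. UMIs of all kept cells of a mouse and gate were summed, 16 sums in all, and tested with edgeR's quasi-likelihood test with pool as a covariate; 194 of the 216 members passed the filter on low counts, of 10606 genes. Values below are CPM scaled for library composition. Clone and control cells of a mouse are from 1 animal, so each gate comparison is also given with mouse as a block. A lower sum may mean fewer cells of a type or less RNA per cell, which these sums cannot tell apart.

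With edgeR on the genes that passed the filter, and without the block, no member passed an adjusted p of 0.05 in any comparison. Averaged over both times, clone against control called 0 members and 1 gene (0.00943% of genes). The unadjusted p was under 0.05 for 38 members, or 19.6%, against 16.8% of genes. The comparisons at 48 h and at 72 h called 0 members and 0 genes (0% and 0%). At an unadjusted p under 0.05 were 27 members at 48 h (13.9%, against 11.98% of genes) and 34 at 72 h (17.5%, against 7.94%). DESeq2 called 11 of 216 members in the average (5.09%), 6 at 48 h (2.78%) and 0 at 72 h. Over all 19588 genes it called 610 in the average. At 48 h it called 282 genes lower and 20 higher, and at 72 h 10 genes.

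With mouse as a block, 11 members were called in the average, 10 lower and 1 higher in clone cells: 5.67% of the members tested, against 4.5% of all genes (477 of 10606). At 48 h 2 were called, both lower (1.03% of members against 0.896% of genes), and at 72 h 13, 11 lower and 2 higher (6.70% against 1.87%). Without mouse 3 the counts were 17, 3 and 17, and at 48 h 5 without mouse 4. Of the 11, 2 and 13 members called with all mice, 7, 1 and 13 were still called without mouse 3. The average held 2 to 17 calls when 1 mouse was left out: 3 without mouse 1, 2 without mouse 2, 3 without mouse 5, 4 without mouse 7 and 3 without mouse 8. At 48 h no call was left without mouse 1 or mouse 2, and at 72 h none without mouse 5 or mouse 7 and 1 without mouse 8. Shares of all genes are not given for these fits, so the counts show only how far the calls depend on single mice.

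At 48 h 2 of the 11 carriers of goblet and Paneth cells, Slc12a8 and Slc39a7, were called lower in clone cells. They were called by edgeR with the block and not without it, and by DESeq2, which had no block. Slc12a8 had 132, 113, 115 and 176 CPM in the control cells of mice 1 to 4 and 22.6, 19.7, 31.6 and 111 CPM in their clone cells. All 4 clone values lay below all 4 control values, with mouse 4 nearest. With the block the log2 difference was -1.62 (SE 0.33, adjusted p = 0.026, edgeR), and without it -1.68 (SE 0.46, adjusted p = 0.26). Slc39a7 had 94.1, 84.5, 96.9 and 91.2 CPM in control and 22.6, 31.5, 34.7 and 63.2 in clone cells, again without overlap. Its log2 difference was -1.27 (SE 0.27, adjusted p = 0.030 with the block and 0.23 without it, edgeR). In mouse 1 the clone value of each gene is 2 UMIs, below the 33.95 CPM that 3 counts would give there. Neither gene was called without mouse 1 or mouse 2, and Slc39a7 was also not called without mouse 3.

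All 11 goblet and Paneth carriers were below 0 at 48 h, with a median log2 difference of -1.27 beside -0.08 over all genes tested, and the same 2 were called. The set was chosen by its level in goblet and Paneth cells among these same cells, clone and control together. Its shared sign is a description and no test, its genes are not replicates, and the median over all genes does not allow for that choice. Of 9 carriers of nucleotide sugars for glycosylation, 8 were tested and all 8 were below 0, with a median of -0.94 and none called. Goblet cells made up 6.85% ± 12 of clone cells at 48 h and 33.9% ± 6.8 of control cells (SD, n = 4 mice each). Of the 10 goblet markers, 8 were called lower in clone cells at 48 h with the block and 0 higher, their sum ran from 441 to 43910 CPM in clone and from 28180 to 46510 in control cells, and none was at 0 in every sum. The part of goblet cell number in the carriers' difference was not tested at 48 h, since no clone sum there held 10 goblet cells.

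At 72 h no carrier of this set was called. Slc12a8 had 76.9, 104, 115 and 192 CPM in the control cells of mice 5 to 8 and 70.5, 141, 54.3 and 98.0 in their clone cells, so the groups overlapped and mouse 6 went the other way. All 11 were again below 0, with a median of -0.36 beside 0.01 over all genes. Goblet cells made up 19.9% ± 8.9 of clone and 27.5% ± 5.8 of control cells, and none of the 10 goblet markers was called. Of the 11 Paneth markers, 9 were called lower at 72 h and 1 at 48 h, and their sum at 72 h ran from 1842 to 10270 CPM in clone and from 3366 to 38940 in control cells. Within goblet cells at 72 h, where all 4 mice had enough cells in both gates, Slc12a8 had 270, 354, 278 and 313 CPM in clone and 262, 293, 311 and 353 in control cells, a log2 difference of -0.03 (SE 0.14). Slc39a7 differed by 0.00 (SE 0.16), and both had an adjusted p of 1 (edgeR). The change of the gate difference from 48 h to 72 h was 1.25 (SE 0.56) for Slc12a8 and 0.98 (SE 0.39) for Slc39a7, with adjusted p of 0.95 for each without the block and 0.69 with it (edgeR). That comparison called 0 members, of 0 genes (0%) without the block and 10 genes (0.0943%) with it. Without the block 19 members (9.79%) had an unadjusted p under 0.05, against 5.22% of genes.

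**Figure D3:**
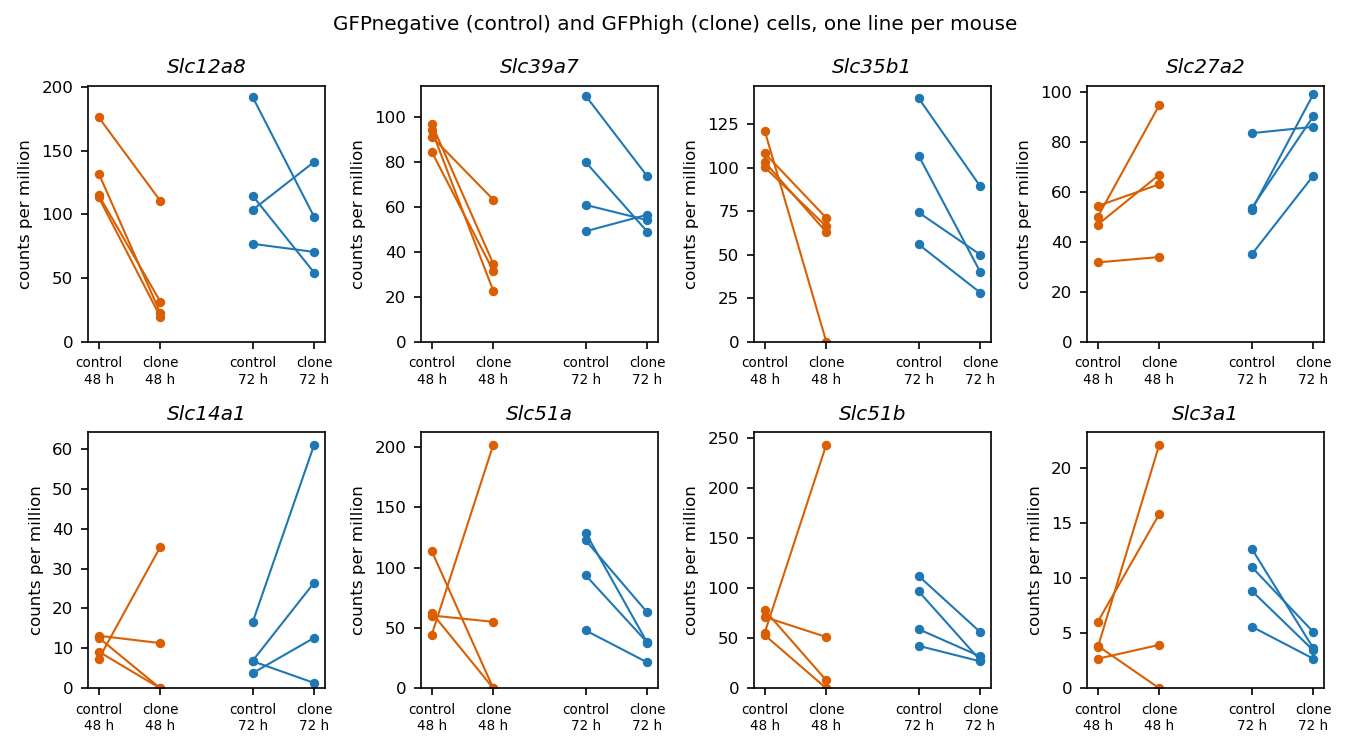
CPM scaled for library composition of 8 members (linear axes from 0) in control and clone cells, 1 line per mouse, 48 h in orange and 72 h in blue. Slc12a8 and Slc39a7 are lower in clone cells of all 4 mice at 48 h, and Slc51a, Slc51b and Slc3a1 of all 4 mice at 72 h, while the 48 h lines of these 3 go both ways.

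Averaged over both times, Slc35b1 was lower in the clone cells of 8 of 8 mice. It exchanges ATP for ADP across the endoplasmic reticulum membrane, and its level was 148 ± 34 CPM in goblet cells and 148 ± 30 in enterocytes (SD, n = 8). Control cells had 121, 103, 100.2 and 108 CPM at 48 h and 74.3, 56.0, 106.9 and 139.9 at 72 h, and clone cells 0, 63.0, 66.3 and 71.1 and then 50.1, 28.2, 40.2 and 89.3. The 0 is from the 4 clone cells of mouse 1, where 3 counts would give 33.95 CPM. The log2 difference was -0.87 (SE 0.18, adjusted p = 0.010 with the block and 0.15 without it, edgeR), and with the block it was called whichever mouse was left out, as was Slc12a8. The other 8 lower members were Slc39a7, Slc35a2, Slc50a1 and Slc39a11 of the goblet and Paneth set, Slc30a7, which moves zinc into the Golgi, Slc37a1, a sugar phosphate carrier, Slc28a3, a nucleoside carrier, and Slc18a1. Their log2 differences ran from -2.01 for Slc18a1 to -0.58 for Slc37a1. Most of these were lost when 1 mouse was left out.

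Slc18a1, the enteroendocrine carrier, had 6.03 to 15.0 CPM in control and 0, 0, 3.16 and 0 CPM in clone cells at 48 h, where 3 counts would give 9.46 to 33.95 CPM. At 72 h it had 6.21, 8.39, 5.51 and 14.7 CPM in control and 3.77, 2.69, 0.522 and 7.68 in clone cells, lower in each mouse. Enteroendocrine cells were 0.383% ± 0.77 of clone and 1.43% ± 1.5 of control cells at 72 h. Of 18 enteroendocrine markers 12 were tested, with 5 called lower at 48 h and 8 at 72 h and none higher. Their sum at 72 h ran from 60.5 to 1140 CPM in clone and from 202 to 1302 in control cells, and 1 marker was at 0 in every sum of each group. The part of enteroendocrine cell number in Slc18a1 was not tested.

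The only member higher in clone cells on average was Slc27a2, of stem cells. It had 31.8, 46.9, 54.4 and 50.0 CPM in control and 33.95, 66.9, 63.1 and 94.8 in clone cells at 48 h. At 72 h it had 52.7, 83.5, 53.5 and 34.97 CPM in control and 99.1, 86.1, 90.3 and 66.5 in clone cells. It was thus higher in clone cells of 8 of 8 mice, though the groups overlapped. The 48 h clone values rest on 3, 17, 20 and 12 UMIs, and in mouse 1 the gates lay close, at 33.95 against 31.8 CPM. The log2 difference was 0.56 (SE 0.15, adjusted p = 0.041) on average and 0.70 (SE 0.15, adjusted p = 0.018) at 72 h, both with the block (edgeR). Without the block it was 0.57 and 0.62, with adjusted p of 0.18 and 0.56 (edgeR). With the block, the call in the average was lost on leaving out mouse 1, 2, 4, 5, 7 or 8. That at 72 h was lost on leaving out mouse 5, 7 or 8. DESeq2 called Slc27a2 in neither, with adjusted p of 0.115 and 0.501. Slc14a1, the other stem member called at 72 h, had 3.80, 6.79, 16.5 and 6.91 CPM in control and 12.7, 1.35, 61.0 and 26.5 in clone cells, higher in 3 of 4 mice. At 72 h all 13 tested members that were highest in stem cells were above 0, with a median of 0.60 beside 0.01 over all genes. They were chosen by their level in these same cells, so the shared sign is no test. Stem cells made up 33.3% ± 11 of clone and 17.2% ± 9.1 of control cells at 72 h. Of 16 stem markers, 15 were tested and 11 were called higher in clone cells, with none lower, and their sum ran from 3188 to 5731 CPM in clone and 1548 to 2979 in control cells. Within stem cells, where 4 clone and 3 control sums at 72 h held enough cells, Slc27a2 differed by 0.05 (SE 0.21, adjusted p = 1, edgeR). Slc14a1 differed there by 1.67 (SE 0.59, adjusted p = 0.98) without the block and 0.69 (SE 0.35, adjusted p = 0.70) with it (edgeR).

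At 72 h 9 of the 26 tested carriers of enterocytes were called lower in clone cells with the block, and none without it or by DESeq2. Slc51a had 129, 48.0, 93.7 and 123 CPM in the control cells of mice 5 to 8 and 37.95, 21.5, 38.1 and 63.0 in their clone cells, and Slc51b had 96.7, 42.4, 59.0 and 112 against 28.0, 26.9, 31.8 and 56.1. Each clone value was below that of its own mouse, though the groups overlapped. With the block the log2 differences were -1.38 (SE 0.33, adjusted p = 0.035) and -1.24 (SE 0.31, adjusted p = 0.039), and without it the adjusted p were 0.56 and 0.59 (edgeR). Slc1a1, the glutamate carrier, had 59.7, 39.6, 70.0 and 45.1 CPM in control and 28.8, 22.9, 34.95 and 32.8 in clone cells, with no overlap. Its log2 difference was -0.83 (SE 0.14, adjusted p = 0.0033 with the block and 0.31 without it, edgeR).

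Both chains of the cystine carrier were also called. Slc3a1 had 11.01, 5.60, 12.7 and 8.85 CPM in control and 5.11, 2.69, 3.65 and 3.45 in clone cells, without overlap, and Slc7a9 37.2, 20.4, 29.8 and 30.4 against 14.5, 6.72, 17.2 and 20.9. Their log2 differences with the block were -1.33 (SE 0.31) and -1.04 (SE 0.23). The anion exchangers Slc26a6 and Slc26a3 differed by -1.81 (SE 0.34) and -0.96 (SE 0.20), Slc6a20a by -1.11 (SE 0.25) and Slc27a4 by -0.95 (SE 0.22). Slc35b1 and Slc28a3 were the remaining members called lower. Of the 27 enterocyte members 26 were tested. All 26 were below 0, and their median was -0.74 beside 0.01 over all genes. This set too was chosen by its level in these same cells, so the shared sign is no test. Slc10a2 was not among those called: it had 29.4, 5.995, 5.51 and 43.6 CPM in control and 11.04, 1.35, 14.1 and 13.8 in clone cells, so mouse 7 went the other way, and its log2 difference was -1.28 (SE 0.51, adjusted p = 0.23 with the block, edgeR). No enterocyte carrier was called without mouse 5 or mouse 7, and 1 without mouse 8. In the list of absorptive nutrient carriers, 18 of 26 were tested and 7 called lower, with a median of -0.87. In that of acid, chloride and bicarbonate carriers 9 of 10 were tested and Slc26a3 and Slc26a6 called lower. None of the 10 tested amino acid carriers that supply growing cells, and none of the 10 mitochondrial carriers of ATP and phosphate supply, was called at either time, with medians at 72 h of 0.08 and -0.08.

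Enterocytes were 3.96% ± 2.0 of clone and 11.3% ± 3.3 of control cells at 72 h (SD, n = 4). Of 18 enterocyte markers, 13 were tested at 72 h with the block and 7 were called lower, with none higher. Their sum ran from 1240 to 3066 CPM in clone and from 1981 to 5524 in control cells. Among the tested pumps, partners and other transporters that are no members, those called with the block at 72 h included Anpep, a brush border peptidase, lower by a log2 difference of -1.46 (SE 0.34), and Slco3a1, an organic anion carrier, higher by 0.63 (SE 0.14). No more than 1 clone sum at 72 h held 10 enterocytes, so no test within enterocytes could be made.

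At 48 h the direction of the same carriers turned on mouse 3. Slc51a had 62.6, 60.3, 44.4 and 114 CPM in control and 0, 55.1, 202 and 0 in clone cells, in which 3 counts would give 33.95, 11.8, 9.46 and 23.7 CPM. The clone cells of mouse 3 were high and those of mice 1 and 4 low: mouse 3 gave 9 enterocytes among 83 cells, and mice 1 and 4 gave 0. Of the 26 enterocyte members tested, 10 were below 0 and the median was 0.26. Without mouse 3, 20 of 26 were below 0, with a median of -0.64 beside -0.12 over all genes and 1 called lower (mouse as a block). The log2 difference of Slc51a was 0.29 (SE 0.49) with all mice and -1.39 without mouse 3, and that of Slc51b 0.39 (SE 0.44) and -1.24, each with the block and not called. Slc10a2 had 20.9, 7.38, 11.1 and 28.5 CPM in control and 0, 19.7, 237 and 0 in clone cells, a log2 difference of 2.17 (SE 0.71, adjusted p = 0.19, edgeR) that became -0.62 without mouse 3. Slc1a1 went the other way than at 72 h, with 26.3, 32.9, 35.1 and 34.2 CPM in control and 33.95, 39.4, 56.8 and 47.4 in clone cells, higher in each mouse. Its clone values rest on 3, 10, 18 and 6 UMIs. The change of its gate difference from 48 h to 72 h was -1.33 (SE 0.34, adjusted p = 0.75 without and 0.25 with the block, edgeR).

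**Figure D4:**
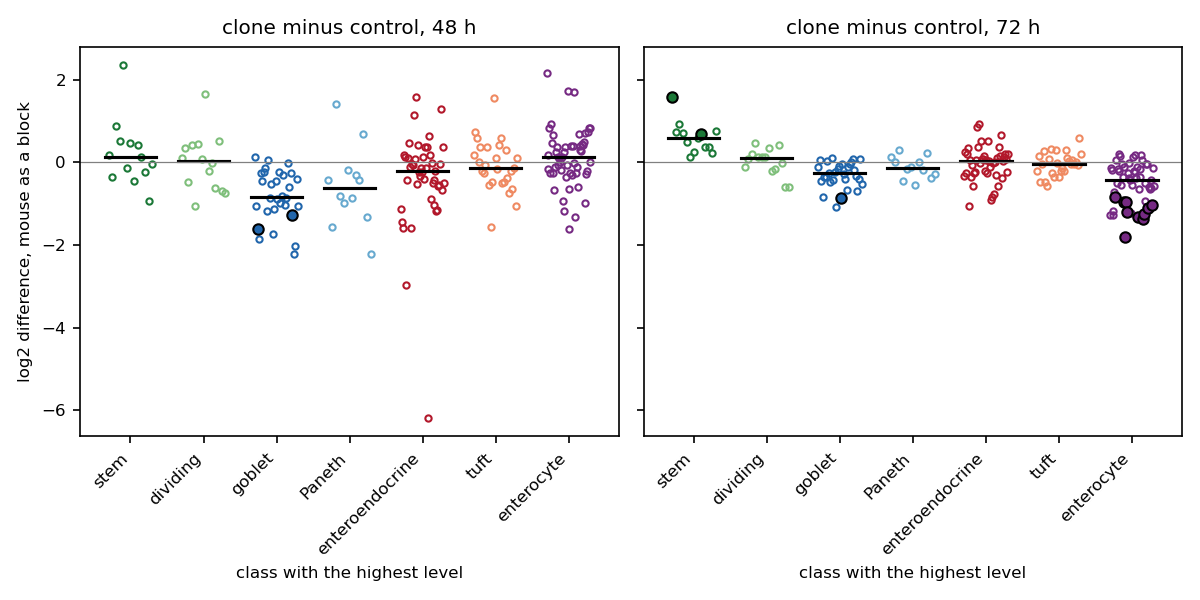
Log2 difference clone minus control with mouse as a block for the 194 members tested, at 48 h and 72 h, placed by the class in which each is highest; filled points passed an adjusted p of 0.05 and bars are medians. Goblet and Paneth members lie lowest at 48 h (medians -0.83 and -0.63) and enterocyte members at 72 h (median -0.42), while stem members lie highest at 72 h (0.60).

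Within single classes, sums of at least 10 cells allowed the clone and control comparison at 72 h in stem, dividing and goblet cells. Without the block it called 0 members and 0 genes in each (0%, 0% and 0%), and with it 0 members in stem cells (0.734% of genes), 5 in dividing cells (2.58% of genes) and 0 in goblet cells (0.0301% of genes). Without the block the unadjusted p was under 0.05 for 5 of 81, 17 of 129 and 1 of 134 members. Over all genes it was so for 291 of 6459, 522 of 8484 and 191 of 8135 (edgeR). The 5 in dividing cells rest on 6 sums of 3 mice with 1 residual degree of freedom, and the same number was called without the pool term. Slc51a had 35.9, 40.4 and 17.1 CPM in the dividing control cells of mice 5, 7 and 8 and 9.02, 1.58 and 8.55 in their clone cells, from 1 to 51 UMIs in each. Slc1a1 had 53.5, 79.2 and 60.3 CPM in control and 26.3, 42.8 and 30.9 in clone cells, without overlap. Their log2 differences were -1.92 (SE 0.33) and -0.97 (SE 0.22). Slc28a3 was also lower, by -1.80 (SE 0.37), and Slc14a1 and Slc30a2, a zinc carrier, higher by 1.21 (SE 0.33) and 1.90 (SE 0.48).

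Between tracing times no member passed, in clone or in control cells. The times are in different mice, so no block applies. Clone cells at 72 h against 48 h called 0 members and 0 genes (0%), with 14 members (7.22%, against 6.26% of genes) at an unadjusted p under 0.05. Control cells called 0 members and 9 genes (0.0849%), with 23 members (11.9%, against 5.42% of genes) at an unadjusted p under 0.05. DESeq2 called 0 members in both, beside 28 genes in clone and 20 in control cells. In control cells Slc1a1 had the largest positive value of the members at a mean log2 CPM of 5 or more, with 32.1 ± 4.0 CPM at 48 h and 53.6 ± 14 at 72 h (SD, n = 4), a log2 difference of 0.73 (SE 0.17, adjusted p = 0.32, edgeR), followed by Slc51a at 0.49 (SE 0.44) and Slc25a37 at 0.48 (SE 0.19). Slc38a1, a glutamine carrier, had 103 ± 5.1 CPM at 48 h and 77.1 ± 6.1 at 72 h, without overlap, a log2 difference of -0.41 (SE 0.13, adjusted p = 0.77, edgeR). Slc30a7 and Slc7a1, the arginine carrier, had -0.39 (SE 0.18) and -0.34 (SE 0.14). In clone cells Slc12a8, Slc37a1 and Slc44a3 had the largest positive values, 1.09 (SE 0.48), 1.04 (SE 0.28) and 0.92 (SE 0.31), and Slc51b, Slc51a and Slc1a1 the largest negative ones, -1.43 (SE 0.57), -1.04 (SE 0.61) and -0.60 (SE 0.29). Each had an adjusted p of 0.78 or more (edgeR). The negative values of Slc51b and Slc51a turned on mouse 3: without it they were 0.41 and 0.67, and Slc1a1 stood at -0.40. Within stem cells the control time comparison called 0 members and 0.0774% of genes, and within dividing and goblet cells 0 members and 0% of genes each. Without mouse 7, 3 of 89 members were called in stem cells, Slc5a1, Slc26a2 and Slc14a1, beside 235 of 6743 genes (3.49%). The count is thus near the share over all genes.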

How the data were processed

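The deposited files are matrices of whole-number UMI counts per gene and hashtag counts per barcode, not normalized, for 2 pools; per the submitters' processing notes the authors used Cell Ranger 6.1.2 with mm10. Hashtags were assigned with HTODemux of Seurat 5.3.0 (quantile 0.99) and cells clustered with scanpy 1.11.5 (2000 variable genes without members, 30 components, 15 neighbours, resolution 1). Doublets within 1 hashtag were not called. Counts were summed per mouse and gate and tested, two-sided, with edgeR 4.0.16 in R 4.3.3 (filterByExpr, TMM, quasi-likelihood, pool as covariate, Benjamini-Hochberg over all genes tested), and with DESeq2 1.42.0. DESeq2 was fitted with pool as a covariate and without the block. The code was tested on simulated data. Clone and control cells of a mouse are from 1 animal; their residuals correlated by 0.017 to 0.431 over 8 mice, and mouse entered as a block in an alternative fit. Named genes are the members called in a contrast (or, with none called, the 3 largest differences each way at a mean log2 CPM of 5 or more), up to 5 members per class by ratio, the 5 with most UMIs, and members of the lists. Members and lists were chosen with earlier results of these data known. UMI levels carry counting error that the spread over mice includes.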

Additional observations from a re-analysis of the deposited data

Results flagged for a closer look

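Among the 21 members called with the block, 84 groups of 4 samples were checked for a sample far from the other 3, and 6 such samples were found; chance gives about 1 in 20 groups. In the clone cells at 48 h, Slc12a8 stood at 110.6 CPM in mouse 4 against 19.7 to 31.6 in the other mice. Slc18a1 stood at 3.155 CPM and Slc26a6 at 25.24 CPM in mouse 3, and both were at 0 in the clone cells of the other 3 mice, where 3 counts would give 11.8 to 33.95 CPM; the value of Slc18a1 is 1 UMI, below the 9.46 CPM of 3 counts in mouse 3, so no difference can be read from it. Slc35b1 was at 0 in the 4 clone cells of mouse 1, against 62.97 to 71.1 CPM in the others. In the control cells at 72 h, Slc26a3 had 13.59 CPM in mouse 6 against 24.39 to 25.9. In the clone cells at 72 h, Slc51b had 56.11 CPM in mouse 8 against 26.9 to 31.82.

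The sign of the Slc1a1 difference changed between tracing times: clone cells were higher than control cells in 4 of 4 mice at 48 h and lower in 4 of 4 at 72 h. The 48 h clone values of mice 1 to 4 rest on 3, 10, 18 and 6 UMIs. The change of the log2 difference was -1.328 and did not pass the test (adjusted p = 0.75 without the block and 0.25 with it, edgeR).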

How the results depend on the processing

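With mouse as a block, the counts of members called moved from 0 to 11 (average), 2 (48 h), 13 (72 h) and, within dividing cells, 5, also 5 with no pool term; leaving out 1 mouse in turn in the blocked fit, an alternative chosen after seeing the data (as were medians of carrier sets without a mouse), gave 2 to 17 (12 without mouse 4, 15 without mouse 6), 0 to 5 and 0 to 18 (14 without mouse 2 and without mouse 4), and 0 to 3 for the change between times (3 without mouse 4). DESeq2 called 11 and 6 of 216 members in the average and at 48 h. Of 19588 genes it called 610 in the average, and 282 lower and 20 higher at 48 h. With no filter on low counts, edgeR without the block called 24, 11 and 16 members in the 3 gate comparisons. It called 5 and 7 between times in clone and control cells, and 9 for the change. The counts with no filter too are given without a share of genes. Leaving out 1 mouse without the block gave 0 to 1 in the average and in control cells between times, and 0 to 3 between times in stem control cells. Stem cells held 1 member in place of 3 at resolution 1.5 and with members among the variable genes (Slc14a1), pooled over cells (Slc27a2), and under 10% mitochondrial UMIs (Slc7a2, not held otherwise), and Paneth cells held 1 in place of 2 with control cells only. Enterocytes held 26 to 28 members over the settings, but Slc39a4 in none besides the main one and control cells only. Slc30a1 and Slc25a24 dropped out with control cells only, and Slc30a1, Slc27a4 and Slc9a3 under 10% mitochondrial UMIs. With control cells only, Slc5a1 was held by enterocytes. The cause was not tested. None of the 26 pairs of gene and comparison called with the block reversed under these settings. Of 22 further named pairs, none of them called with the block, 5 reversed, all in bile acid carriers. Leaving out 1 mouse, Slc51b and Slc51a between times in clone cells ran from -1.74 and -1.36, and Slc51a, Slc51b and Slc10a2 at 48 h up to 1.03, 1.09 and 3.00. Without mouse 3, clone cells between times gave 0.41 for Slc51b and 0.67 for Slc51a, and clone minus control at 48 h gave -1.54 for Slc51a, -1.24 for Slc51b and -1.03 for Slc10a2, or -1.39, -1.24 and -0.62 with the block. With a top hashtag share of at least 70% the values were 0.13, 0.48, -1.44, -1.27 and -0.72 in that order. Slc51a at 48 h also stood at -0.30 by DESeq2 and at -0.041 and -0.12 with mitochondrial limits of 10% and 50%. The few UMIs of the 48 h clone cells limit what that comparison can show.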
